A study of Mus musculus with 12 samples.

Results

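DNA replication and G1/S genes are here 50 of the 55487 genes in the count table, the members of a list of replication factors, deoxynucleotide enzymes, E2F factors and E-type cyclins. They were chosen by symbol, through mouse Ensembl identifiers, and not by a cut on their values. Earlier results of these data were known when the list was made. All 50 had enough counts to be tested, among 13581 tested genes. RNA was measured by QuantSeq 3′ sequencing, which reads the end of each transcript, in 12 libraries. The cells were im-TEC, tubular epithelial cells from mouse kidney that are immortalized conditionally. The 4 groups of 3 libraries were control, TGFβ at 10 ng/mL, NNMTi at 50 µM, and both agents together (the combined group), all at 48 h. NNMTi is 5-amino-1-methylquinolinium, an inhibitor of nicotinamide N-methyltransferase, called the inhibitor from here on. The cells of all groups carry SV40 large T antigen and are kept at 33 °C with IFNgamma. They had spent 7 days at 37 °C without IFNgamma before seeding, a step meant to lower the antigen's activity. Large T antigen is known to bind the retinoblastoma proteins that restrain E2F, so every group shares this feature of the line. The labels do not say that the 3 libraries of a group were separate cultures.

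Replication begins in G1, when the origin recognition complex, Cdc6 and Cdt1 load the ring of MCM proteins onto origins. At the G1/S transition, cyclin-dependent kinases and Dbf4-dependent kinase bring in Cdc45 and the GINS complex to form the active helicase, and primase, DNA polymerases and the PCNA clamp follow. Most of these genes are known targets of E2F factors, which D-type and E-type cyclins release from retinoblastoma proteins. In epithelial cells TGFβ is known as an inhibitor of G1 progression.

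Counts in genes ranged from 2584117 in TGFβ replicate 3 to 11866903 in TGFβ replicate 2, and 3 counts in a library stood for 0.253 to 1.16 CPM on these unadjusted totals. The levels given from here on are CPM on totals adjusted by TMM factors. The lowest total of any member over the 3 libraries of a group was 94 counts, for *Orc1* with the inhibitor. The TGFβ libraries varied most among themselves, with a biological coefficient of variation of 0.227. It was 0.0657 among controls, 0.0884 among inhibitor libraries and 0.112 among combined libraries. The limma library weight was 0.146 for TGFβ replicate 2, against 0.791 for replicate 3 and 1.80 for replicate 1. Replicate 2 was thus the library that deviated most, while replicate 3 was the shallowest. Results resting on TGFβ replicates 2 and 3 are therefore also given without them. Tubular epithelial markers summed to 2815 to 2958 CPM in the controls, 3079 to 3265 CPM with the inhibitor, 2385 to 2738 CPM with TGFβ and 2236 to 2426 CPM in the combined group, while *Epcam* and *Slc34a1* were at 0 in every library. The sums hide changes in both directions. Of the 10 tested, 4 fell with TGFβ, among them *Aqp1* (39.4-fold), *Cdh16* (2.77-fold) and *Pax2* (2.01-fold), and 3 rose, among them *Krt8* (4.62-fold) and *Cdh6* (1.87-fold). Of 8 fibroblast markers, *Pdgfra*, *Lum*, *Thy1*, *Dpt* and *Pi16* were at 0, and the sum of all 8 was 12.0 to 15.7 CPM with TGFβ, 2.20 to 4.23 CPM in the combined group, 0.605 to 1.67 CPM in the controls and 0 to 1.10 CPM with the inhibitor. *Cdh5*, *Kdr*, *Emcn* and *Tie1* of endothelial cells were at 0 as well. Of 6 immune markers only *Adgre1* was at 0, and the sum was 6.78 to 7.92 CPM in the controls, 3.52 to 7.22 CPM with the inhibitor, 5.40 to 8.19 CPM with TGFβ and 5.15 to 6.14 CPM in the combined group. The macrophage marker *Cd68*, the one immune marker with enough counts to be tested, was called in none of the comparisons with control.

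Promoter sequences are shown first because E2F sites are what most of these genes are known to share. Of the 50 members, 40 had a window in the RefSeq promoter table (GRCm38.p6) running from 250 bases before to 50 bases after the start. An E2F match was any of TTTCCCGC, TTTCGCGC, TTTGCCGC and TTTGGCGC on either strand. Such a match lay in 14 of 40 members (35.0%), against 4.88% of 9389 tested genes and 2.60% of 27025 genes with a window. The NF-Y box CCAAT was found in 62.5% of members and 43.4% of tested genes, the GC box GGGCGG in 75.0% and 70.2%, and the cell cycle homology element TTTGAA in 12.5% and 13.9%, each on both strands. E2F matches may overlap one another on opposite strands, and a match is a string of letters, not a shown site of binding. The 250 bases before the start follow for 6 members with a match that rose with TGFβ, and then for *E2f8* and *Tk1*, 2 members without one that fell most when the inhibitor was added to TGFβ. Each reads 5′ to 3′ on the gene's strand, with E2F matches in capitals.
Mcm5: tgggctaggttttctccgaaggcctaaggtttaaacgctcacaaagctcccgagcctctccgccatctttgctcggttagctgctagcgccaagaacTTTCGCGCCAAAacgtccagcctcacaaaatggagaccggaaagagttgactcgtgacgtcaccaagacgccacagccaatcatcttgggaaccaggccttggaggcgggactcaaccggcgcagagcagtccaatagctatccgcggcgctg
Mcm6: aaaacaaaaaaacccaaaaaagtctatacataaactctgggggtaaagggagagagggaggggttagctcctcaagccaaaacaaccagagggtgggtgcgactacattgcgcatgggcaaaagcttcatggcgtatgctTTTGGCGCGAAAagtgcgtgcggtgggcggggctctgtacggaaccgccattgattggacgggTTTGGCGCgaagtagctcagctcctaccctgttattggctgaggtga
Mcm7: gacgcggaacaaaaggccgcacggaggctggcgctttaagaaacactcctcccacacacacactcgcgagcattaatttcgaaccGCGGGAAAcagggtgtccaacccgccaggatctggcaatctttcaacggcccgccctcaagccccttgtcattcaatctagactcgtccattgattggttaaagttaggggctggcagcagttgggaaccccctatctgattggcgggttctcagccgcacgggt
Orc1: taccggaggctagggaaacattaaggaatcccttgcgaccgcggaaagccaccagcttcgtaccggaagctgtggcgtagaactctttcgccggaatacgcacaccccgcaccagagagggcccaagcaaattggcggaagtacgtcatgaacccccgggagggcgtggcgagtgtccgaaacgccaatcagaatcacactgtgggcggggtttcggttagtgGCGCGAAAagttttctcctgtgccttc
Cdc6: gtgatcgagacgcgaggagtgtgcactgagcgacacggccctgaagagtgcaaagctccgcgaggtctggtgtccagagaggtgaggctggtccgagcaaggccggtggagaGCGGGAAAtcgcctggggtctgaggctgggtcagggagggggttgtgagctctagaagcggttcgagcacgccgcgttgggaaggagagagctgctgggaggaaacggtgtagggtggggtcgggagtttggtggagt
E2f7: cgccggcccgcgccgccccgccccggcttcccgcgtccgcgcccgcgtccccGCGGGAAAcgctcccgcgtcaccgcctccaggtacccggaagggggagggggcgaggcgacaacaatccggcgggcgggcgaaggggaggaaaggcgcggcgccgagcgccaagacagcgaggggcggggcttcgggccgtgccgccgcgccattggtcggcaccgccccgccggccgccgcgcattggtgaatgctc
E2f8: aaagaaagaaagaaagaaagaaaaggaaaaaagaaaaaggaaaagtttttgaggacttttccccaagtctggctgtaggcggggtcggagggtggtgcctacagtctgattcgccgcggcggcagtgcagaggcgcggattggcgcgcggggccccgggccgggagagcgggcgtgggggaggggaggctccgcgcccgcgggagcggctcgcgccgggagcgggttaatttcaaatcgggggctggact
Tk1: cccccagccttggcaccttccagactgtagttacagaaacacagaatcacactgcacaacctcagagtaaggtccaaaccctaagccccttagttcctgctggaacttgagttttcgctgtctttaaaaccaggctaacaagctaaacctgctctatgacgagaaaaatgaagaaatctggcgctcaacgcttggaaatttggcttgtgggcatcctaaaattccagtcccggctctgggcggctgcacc
These windows lie at chr8:75109259-75109508 (plus strand) for *Mcm5*, chr1:128359706-128359955 (minus strand) for *Mcm6*, chr5:138171884-138172133 (minus strand) for *Mcm7*, chr4:108579204-108579453 (plus strand) for *Orc1*. The others lie at chr11:98907901-98908150 (plus strand) for *Cdc6*, chr10:110745189-110745438 (plus strand) for *E2f7*, chr7:48881597-48881846 (minus strand) for *E2f8* and chr11:117826015-117826264 (minus strand) for *Tk1*. In *Mcm5* and *Mcm6* a run of capitals holds 2 matches that overlap on opposite strands. Members that later fell with the inhibitor added to TGFβ held an E2F match in 6 of 18 windows (33.3%) and the other members in 8 of 22 (36.4%).

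**Figure D1:**
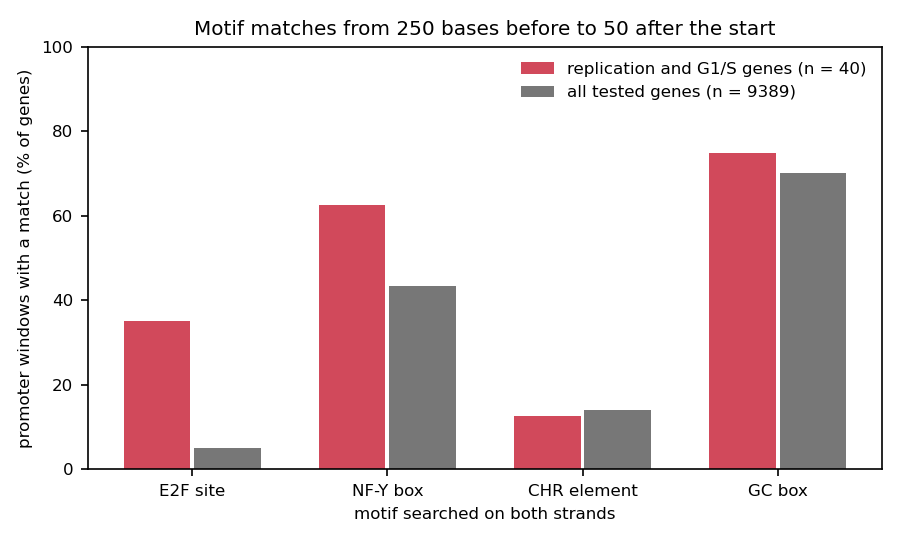
Share of promoter windows with at least 1 match to each motif, for 40 replication and G1/S genes (red) and 9389 tested genes (grey). The E2F bars stand at 35.0% and 4.88%, while the GC box bars stand at 75.0% and 70.2%.

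The response to TGFβ was read from TGFβ against control. Replication and G1/S genes rose almost throughout: 47 of 50 were higher at an adjusted p below 0.05, against 19.4% of all tested genes, and none was lower, against 17.1%. The median change was 0.82 on the log2 scale, against 0.0168 over all tested genes. The steepest rises were those of *Mcm10* at 3.50-fold, *Ccne2* at 3.35-fold, *Orc1* at 3.28-fold and *E2f7* at 3.23-fold. In 46 members all TGFβ libraries lay above all controls, against 23.0% of tested genes. Members took 0.341 to 0.342% of the counts in the controls and 0.520 to 0.544% with TGFβ. In RNA from whole cultures, more cells of a kind and more RNA per cell cannot be told apart. Values in parentheses are log2 fold changes ± SE with the adjusted p of edgeR, and a left-out library is named by its group and replicate number.

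**Figure D2:**
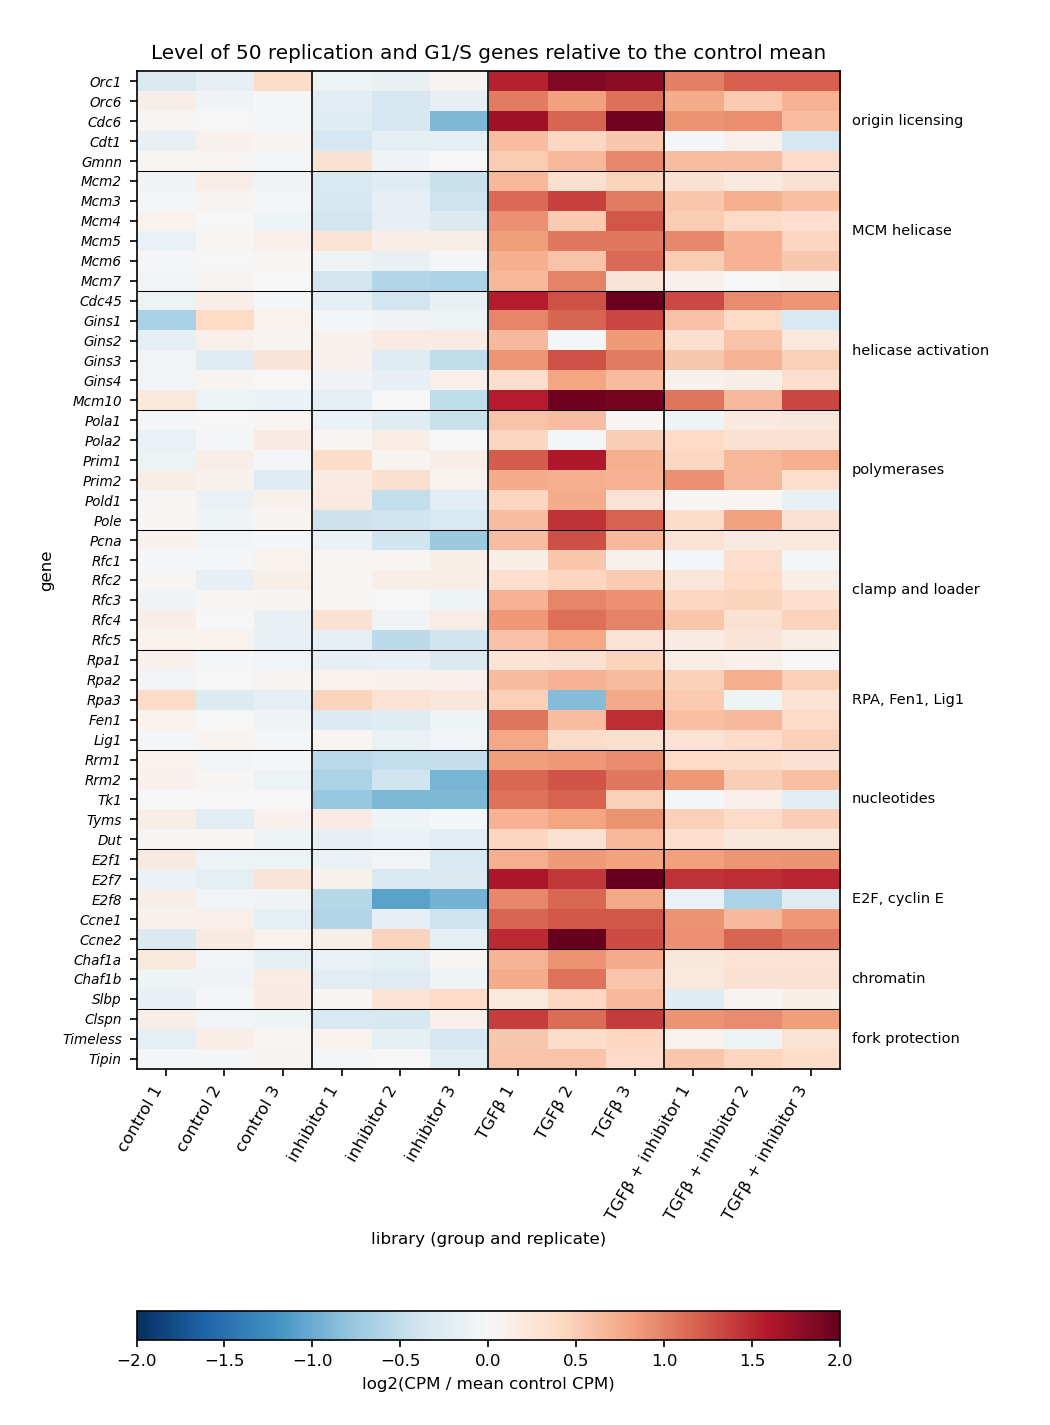
Level of each of the 50 genes (rows, by role) in each of the 12 libraries (columns), as log2 of CPM over the control mean; red is higher and blue lower, and values past 2 take the end colour. The TGFβ columns are red in nearly every row, with library medians of 0.72 to 0.84, the combined columns are paler at 0.34 to 0.44, and the inhibitor columns lean blue at -0.18 to -0.11.

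Origin licensing genes all rose with TGFβ, 5 of 5. *Orc1*, the largest subunit of the origin recognition complex, read 3.01, 3.27 and 4.74 CPM in the controls and 10.7, 13.3 and 12.6 CPM with TGFβ, a 3.28-fold rise (1.71 ± 0.23, adjusted p 1.25e-05). *Cdc6*, which brings the helicase to the origin, read 13.7, 13.3 and 13.2 CPM and then 43.6, 30.2 and 50.9 CPM, 3.03-fold higher (1.60 ± 0.19, adjusted p 3.14e-06). *Cdt1*, its partner in loading, went from 51.9, 61.4 and 59.8 CPM to 88.8, 76.8 and 83.4 CPM, 1.44-fold higher (0.52 ± 0.12, adjusted p 0.00268). None of these groups overlapped, and the relative change of *Cdt1* was the smallest of the 5. *Gmnn*, geminin, the inhibitor of Cdt1, went from 17.3, 17.3 and 16.6 CPM to 24.2, 26.8 and 33.3 CPM, 1.61-fold higher (0.69 ± 0.15, adjusted p 0.00170). *Orc6* rose 1.98-fold (0.98 ± 0.12, adjusted p 2.77e-06).

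All 6 MCM helicase subunits rose, with a median change of 0.86. *Mcm2* read 184, 212 and 183 CPM in the controls and 305, 239.9 and 264 CPM with TGFβ, a rise of 1.40-fold (0.48 ± 0.10, adjusted p 0.00127). *Mcm3* read 87.4, 91.9 and 85.97 CPM and then 194, 228 and 181 CPM, the steepest rise of the 6 at 2.28-fold (1.19 ± 0.11, adjusted p 6.13e-08). Its 3 TGFβ libraries stood well clear of the controls. *Mcm5* went from 29.7, 32.9 and 34.97 CPM to 58.3, 67.3 and 67.3 CPM, or 1.97-fold (0.98 ± 0.14, adjusted p 1.65e-05). *Mcm6* went from 106, 109 and 112 CPM to 178, 161 and 239 CPM, or 1.75-fold (0.81 ± 0.12, adjusted p 3.45e-05), with replicate 3 the highest. *Mcm4* rose 1.88-fold and *Mcm7* 1.59-fold. No test of one subunit against another was made.

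Helicase activation genes rose in 6 of 6, with a median of 1.11. *Cdc45*, which joins the MCM ring and GINS in the moving helicase, read 17.4, 20.6 and 18.1 CPM in the controls and 55.5, 45.2 and 73.8 CPM with TGFβ, 3.04-fold higher (1.61 ± 0.17, adjusted p 6.64e-07). *Gins2* read 26.8, 32.6 and 31.6 CPM and 47.3, 29.9 and 54.7 CPM, 1.41-fold higher (0.50 ± 0.17, adjusted p 0.0316). It is the exception in this set, since TGFβ replicate 2 lay within the control range, and its call was lost without control 1 or 3, inhibitor 1, 2 or 3, TGFβ 1 or 3 or combined 1, 2 or 3 (adjusted p 0.0513 to 0.134). *Mcm10*, an activator of the loaded helicase, had the steepest rise of all 50 (1.81 ± 0.20, adjusted p 1.3e-06). The other GINS subunits rose 2.21-fold (*Gins1*), 2.10-fold (*Gins3*) and 1.51-fold (*Gins4*).

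Among primase and polymerase genes 5 of 6 rose. *Pola1*, the catalytic subunit of the priming polymerase, read 53.01, 53.4 and 55.2 CPM in the controls and 80.3, 82.3 and 54.7 CPM with TGFβ, 1.37-fold higher (0.45 ± 0.14, adjusted p 0.0173). Its replicate 3 overlapped the controls, and its call was lost without control 1 or 2 or TGFβ 1 (adjusted p 0.0586 to 0.0753). *Pole*, the leading-strand polymerase, went from 29.5, 27.4 and 30.2 CPM to 44.4, 78.8 and 65.4 CPM without overlap, 2.16-fold higher (1.11 ± 0.18, adjusted p 8.58e-05). The primase subunits *Prim1* and *Prim2* rose 2.40-fold and 1.65-fold. *Pold1*, the lagging-strand polymerase, rose 1.43-fold and lost its call without control 2 or TGFβ 2 (adjusted p 0.0700 to 0.0746). *Pola2* was not called (0.30 ± 0.13, adjusted p 0.0783): it read 57.03, 61.1 and 70.05 CPM in the controls and 84.5, 61.5 and 88.4 CPM with TGFβ, and was called without TGFβ 2 (adjusted p 0.00156).

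The sliding clamp and its loader rose in 5 of 6. *Pcna*, the clamp, read 37.05, 33.8 and 33.96 CPM in the controls and 53.9, 85.1 and 54.7 CPM with TGFβ, 1.87-fold higher (0.90 ± 0.17, adjusted p 0.000424). TGFβ replicate 2 was the highest of the 12 libraries for this gene. *Rfc3*, a small subunit of the loader, went from 63.2, 67.2 and 68.8 CPM to 108, 130.2 and 125 CPM, 1.82-fold higher (0.86 ± 0.10, adjusted p 2.25e-06) and with no overlap. *Rfc4* rose 1.99-fold, *Rfc5* 1.49-fold and *Rfc2* 1.34-fold. *Rfc1*, the large subunit, read 211, 209.9 and 227 CPM and 236, 316 and 230.0 CPM and was not called (0.28 ± 0.13, adjusted p 0.0950), except without TGFβ 3 (adjusted p 0.0346).

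Single-strand binding and Okazaki fragment genes rose in 4 of 5. *Fen1*, the flap endonuclease, read 57.8, 55.1 and 52.1 CPM in the controls and 115, 84.2 and 153 CPM with TGFβ, 2.10-fold higher (1.07 ± 0.16, adjusted p 3.82e-05). *Lig1*, which seals the fragments, rose 1.42-fold. The RPA subunits differed in call: *Rpa2* rose 1.57-fold and *Rpa1* 1.27-fold, the latter lost without control 3 (adjusted p 0.05), and *Rpa3* was not called (0.20 ± 0.35, adjusted p 0.690). *Rpa3* read 36.8, 23.2 and 24.5 CPM in the controls and 39.3, 15.5 and 47.8 CPM with TGFβ. Replicate 2 was the lowest of all 12 libraries, and without TGFβ 2 (adjusted p 0.0212) the gene was called higher.

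Genes of deoxynucleotide supply rose in 5 of 5. *Rrm1*, the large subunit of ribonucleotide reductase, read 175, 161 and 163 CPM in the controls and 295, 302 and 318 CPM with TGFβ, 1.84-fold higher (0.88 ± 0.09, adjusted p 2.31e-07). *Rrm2*, its small subunit, went from 45.3, 43.2 and 39.6 CPM to 94.6, 103 and 89.2 CPM, 2.24-fold higher (1.17 ± 0.14, adjusted p 2.06e-06). In both genes the TGFβ libraries lay close together and far above the controls. *Tk1*, the thymidine kinase of the salvage pathway, read 46.8, 46.97 and 46.8 CPM and then 98.9, 106 and 65.4 CPM, 1.95-fold higher (0.96 ± 0.14, adjusted p 3.73e-05), with replicate 3 the nearest to the controls. *Tyms*, thymidylate synthase, read 53.1, 41.5 and 51.4 CPM and then 78.8, 84.5 and 90.3 CPM, 1.73-fold higher (0.79 ± 0.12, adjusted p 3.72e-05). *Dut*, which removes dUTP, rose 1.39-fold.

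The E2F factors and E-type cyclins rose in 5 of 5. *E2f1*, an activator of replication genes, read 42.9, 34.98 and 35.2 CPM in the controls and 62.04, 68.3 and 65.8 CPM with TGFβ, 1.74-fold higher (0.79 ± 0.12, adjusted p 3.08e-05). *E2f7*, an atypical E2F that represses them, read 11.3, 10.7 and 14.6 CPM and then 37.5, 32.5 and 52.04 CPM, 3.23-fold higher (1.69 ± 0.18, adjusted p 6.87e-07). *E2f8*, the other atypical repressor, read 14.8, 13.1 and 12.9 CPM and then 26.4, 30.1 and 22.96 CPM, 1.97-fold higher (0.98 ± 0.18, adjusted p 0.000272). Activator and repressors thus rose together, with no overlap in any of the 3. *Ccne1*, a partner of Cdk2, went from 24.2, 24.4 and 20.1 CPM to 51.4, 54.3 and 54.3 CPM, 2.33-fold higher (1.22 ± 0.14, adjusted p 1.28e-06). *Ccne2*, the other E-type cyclin, went from 19.8, 27.2 and 25.3 CPM to 68.1, 110.1 and 59.7 CPM, 3.35-fold higher (1.74 ± 0.21, adjusted p 1.22e-05) and highest in replicate 2.

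Chromatin assembly and fork protection genes rose in 6 of 6. *Slbp*, which binds histone mRNA, read 21.5, 23.2 and 26.9 CPM in the controls and 27.8, 31.8 and 37.5 CPM with TGFβ, 1.33-fold higher (0.41 ± 0.16, adjusted p 0.0456). The groups came close without overlapping, and its call was lost without control 1 or 2, inhibitor 1, 2 or 3, TGFβ 2 or 3 or combined 1, 2 or 3 (adjusted p 0.0624 to 0.162). The CAF-1 subunits *Chaf1a* and *Chaf1b* rose 1.72-fold and 1.77-fold. *Clspn*, claspin, the adaptor of the replication checkpoint, went from 31.7, 27.96 and 27.3 CPM to 75.3, 62.9 and 76.1 CPM, 2.45-fold higher (1.29 ± 0.13, adjusted p 4.6e-07). *Tipin* went from 53.6, 53.5 and 56.3 CPM to 80.8, 81.1 and 70.8 CPM, 1.43-fold higher (0.52 ± 0.11, adjusted p 0.000832). Its partner *Timeless* rose 1.36-fold and lost its call without control 1 or TGFβ 1 (adjusted p 0.0605 to 0.0852).

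**Figure D3:**
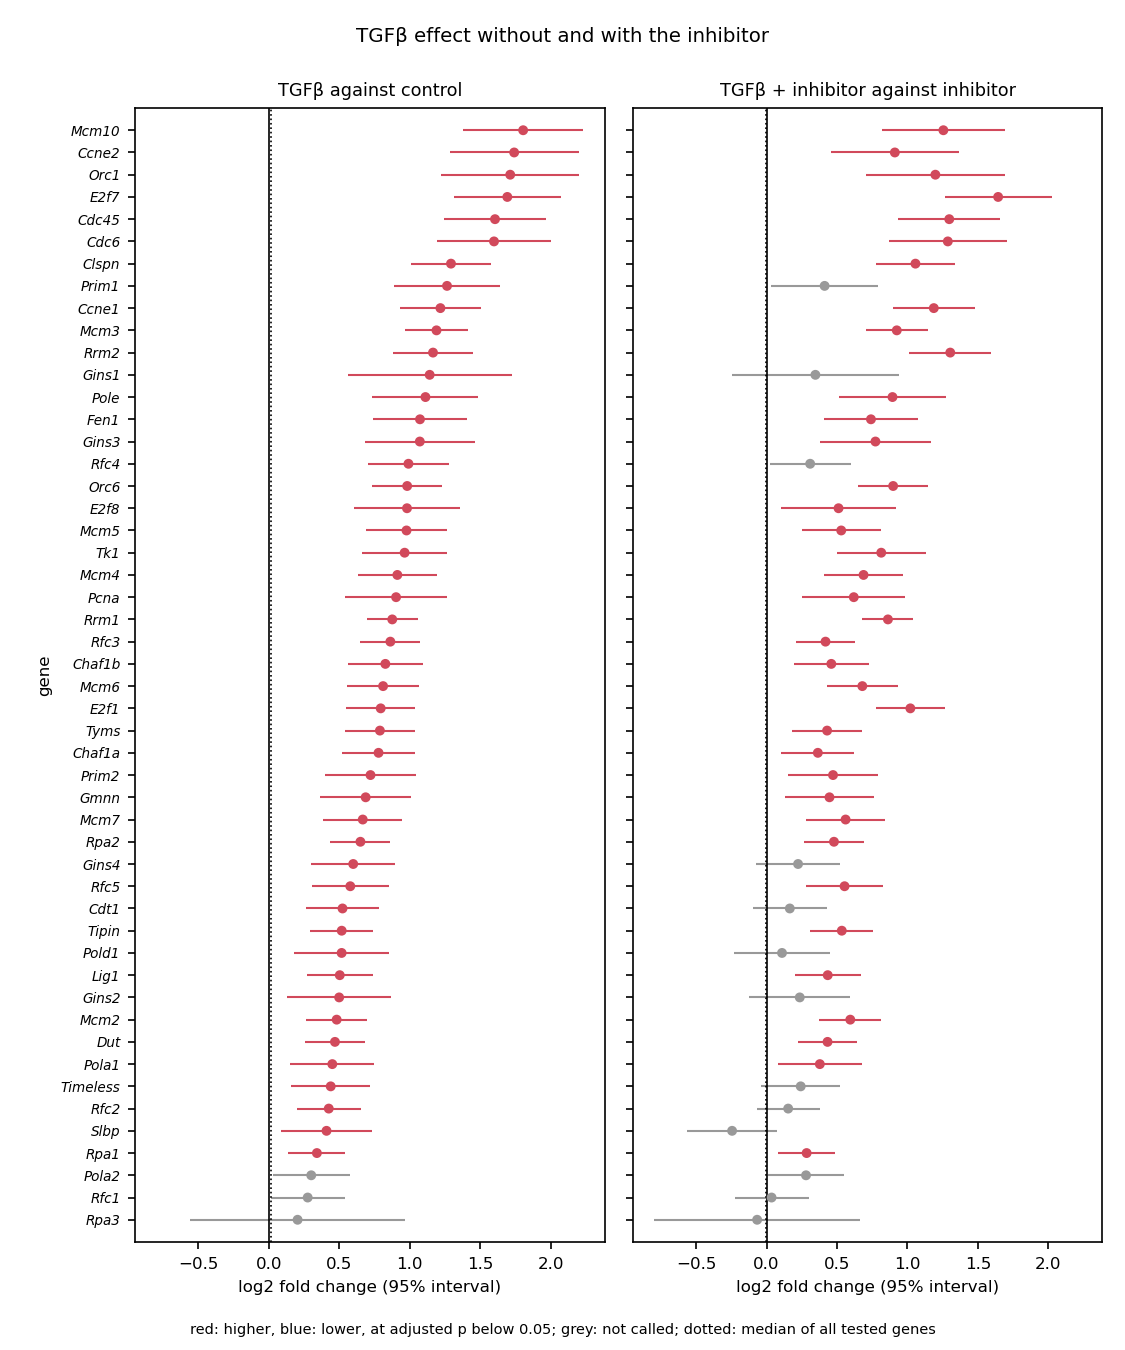
Log2 fold change with its 95% interval for each of the 50 genes, for TGFβ against control (left) and for the combined group against the inhibitor (right); genes are ordered by the left panel, red marks a rise at an adjusted p below 0.05 and the dotted line the median of all tested genes. On the left 47 intervals are red and on the right 37, with medians of 0.82 and 0.52.

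Without TGFβ replicates 2 and 3 the members' median was 0.70, against -0.0156 over all genes. This fit rests on 1 TGFβ library, whose own spread is not known. Other lists moved alongside. All 11 mitosis genes followed, such as *Mki67* and *Top2a*, were called higher (median 0.86). Among 7 CDK inhibitor genes *Cdkn1a* (0.31), *Cdkn2a* (0.63) and *Cdkn2b* (0.80) also rose and *Cdkn2c* fell (-1.08). Of 10 interferon-response genes 7 rose (median 1.66), and reads outside genes were 21.1 to 22.8% with TGFβ against 25.6 to 26.1% in the controls. The part of these, and of the fibroblast markers above, in the rise of the replication genes was not tested.

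The effect of the inhibitor in TGFβ-treated cells was read from the combined group against TGFβ. Replication and G1/S genes fell or were not called: 21 of 50 were lower, against 6.97% of all tested genes, and none was higher, against 3.45%. In either direction 10.4% of tested genes were called. The median change was -0.42, against -0.0218 over all tested genes, and 29 members had all combined libraries below all TGFβ libraries, against 13.8% of tested genes. No member had them all above, against 10.1%. The largest falls were in *E2f8* (2.48-fold) and *Tk1* (2.01-fold). Activator *E2f1* and repressor *E2f7*, which had risen with TGFβ, were not called. Members took 0.394 to 0.407% of the counts in the combined group.

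In licensing, *Cdc6* and *Cdt1* fell. *Cdc6* read 25, 25.6 and 20.5 CPM in the combined group, 1.71-fold lower than with TGFβ (-0.78 ± 0.19, adjusted p 0.0121). *Cdt1* read 56.4, 61.8 and 45.2 CPM, 1.52-fold lower (-0.61 ± 0.12, adjusted p 0.00451). All combined libraries of both genes were below all TGFβ libraries, and those of *Cdt1* lay around the control values. *Orc1* read 7.41, 8.43 and 8.45 CPM, also below TGFβ in every library, but was not called (-0.59 ± 0.22, adjusted p 0.0959). *Gmnn* read 26.2, 26.1 and 22.3 CPM, overlapping TGFβ (-0.15 ± 0.15, adjusted p 0.592).

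Among helicase genes *Mcm3*, *Mcm4*, *Mcm7*, *Cdc45* and *Mcm10* fell. *Mcm3* read 129.9, 145 and 134 CPM in the combined group, 1.48-fold below TGFβ (-0.57 ± 0.10, adjusted p 0.00173). *Mcm7* read 380.1, 357 and 371 CPM against 565, 709 and 427 CPM with TGFβ, 1.54-fold lower (-0.62 ± 0.13, adjusted p 0.00610). The combined values of *Mcm7* lay at the level of its controls, 345, 370.2 and 359 CPM. *Cdc45* read 46.9, 36.1 and 34.5 CPM, 1.45-fold lower (-0.54 ± 0.16, adjusted p 0.0430), with replicate 1 inside the TGFβ range. *Mcm2* read 237, 221 and 239 CPM, *Mcm5* 63.3, 52.6 and 43.8 CPM and *Mcm6* 154, 176 and 158 CPM. These 3 subunits were not called, with changes of -0.21, -0.27 and -0.23 and intervals of -0.43 to 0.00, -0.55 to 0.01 and -0.48 to 0.02. *Gins2* read 37.7, 44.8 and 35.3 CPM and was not called (-0.12 ± 0.17, adjusted p 0.702).

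Polymerase, clamp and Okazaki genes fell in 7 of 17. *Pole* read 37.4, 50.9 and 35.8 CPM, 1.52-fold lower (-0.60 ± 0.18, adjusted p 0.0370), and *Pcna* 42.5, 39.5 and 40.4 CPM, 1.60-fold lower (-0.68 ± 0.17, adjusted p 0.0164). *Rfc3* read 88.3, 90.3 and 84.2 CPM, 1.38-fold lower (-0.46 ± 0.10, adjusted p 0.00658). *Fen1* read 83.1, 85.96 and 71.4 CPM, 1.44-fold lower (-0.53 ± 0.16, adjusted p 0.0395). The combined libraries of *Pcna* and *Rfc3* were all below TGFβ, while those of *Pole* and *Fen1* overlapped it. *Prim1*, *Pold1* and *Rfc4* fell 1.58-fold, 1.46-fold and 1.46-fold. *Pola1*, at 50.9, 61.8 and 62.7 CPM, was not called (-0.33 ± 0.14, adjusted p 0.145), nor were *Pola2*, *Prim2*, the other loader subunits, the RPA genes and *Lig1*.

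Nucleotide supply genes fell in 3 of 5. *Rrm1* read 219, 213 and 205 CPM in the combined group, 1.44-fold below TGFβ (-0.52 ± 0.09, adjusted p 0.000648). *Rrm2* read 78.2, 60.01 and 65.1 CPM, 1.41-fold lower (-0.50 ± 0.13, adjusted p 0.0227). *Tk1* read 46.2, 50.2 and 40.1 CPM, 2.01-fold lower (-1.004 ± 0.15, adjusted p 0.000207). In each the groups did not overlap, and the combined values of *Tk1* lay on either side of its controls. *Tyms* read 67.6, 63.1 and 68.5 CPM, below every TGFβ library yet not called (-0.34 ± 0.12, adjusted p 0.0700), and *Dut* was not called either.

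Of the E2F factors, only *E2f8* was called. It read 12.4, 8.77 and 11.4 CPM in the combined group, 2.48-fold below TGFβ (-1.31 ± 0.18, adjusted p 0.000144), and every combined library was below every control. *E2f1* read 66.3, 69.2 and 69.9 CPM, overlapping its TGFβ libraries (0.07 ± 0.11, adjusted p 0.763), with an interval of -0.17 to 0.31. *E2f7* read 33.2, 33.8 and 35.1 CPM (-0.22 ± 0.17, adjusted p 0.460), with an interval of -0.57 to 0.14. Between *E2f1* and *E2f8* no test of the difference was made. *Ccne2* read 45.6, 54.3 and 50.2 CPM, 1.61-fold lower (-0.69 ± 0.21, adjusted p 0.0452). *Ccne1* read 42.5, 35.7 and 41.99 CPM, below all TGFβ libraries but not called (-0.41 ± 0.13, adjusted p 0.0562).

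*Chaf1a* and *Chaf1b* fell 1.43-fold and 1.47-fold. *Slbp* read 20.3, 24.9 and 26.02 CPM and *Clspn* 54.3, 55.9 and 51.5 CPM, both below every TGFβ library and not called, at -0.42 and -0.40. *Tipin* read 79.98, 73.2 and 70.4 CPM, overlapping TGFβ (-0.07 ± 0.11, adjusted p 0.743).

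Of the 21 falls, 8 were called whichever library was left out: *Cdt1*, *Mcm3*, *Mcm7*, *Rfc3*, *Rrm1*, *Tk1*, *E2f8* and *Chaf1b*. The count was 13, 11 and 10 without combined replicates 1, 2 and 3. Over all genes 543 of 13955, 641 of 13967 and 505 of 13959 were then lower, in place of 947 of 13581. *Cdc6* lost its call without combined 3 (adjusted p 0.0850), *Chaf1a* without combined 1 (adjusted p 0.0570), *Mcm10* without combined 1 or 2 (adjusted p 0.0595 to 0.0924), *Rfc4* without combined 2 or 3 (adjusted p 0.0581 to 0.0803) and *Rrm2* without combined 2 or 3 (adjusted p 0.103 to 0.114). *Pcna* lost it without TGFβ 2 or combined 2 or 3 (adjusted p 0.0617 to 0.0645), *Prim1* without TGFβ 2 or combined 1, 2 or 3 (adjusted p 0.0517 to 0.113) and *Mcm4* without inhibitor 2 or 3, TGFβ 3 or combined 1, 2 or 3 (adjusted p 0.0503 to 0.131). *Ccne2* lost it without control 2 or 3, inhibitor 1, TGFβ 2 or combined 1, 2 or 3 (adjusted p 0.0599 to 0.150). The weakest calls were *Pold1*, lost without control 1, 2 or 3, inhibitor 3, TGFβ 1 or 2 or combined 1, 2 or 3 (adjusted p 0.0509 to 0.153), *Pole*, lost without control 1, 2 or 3, inhibitor 1, 2 or 3, TGFβ 2 or 3 or combined 1 or 3 (adjusted p 0.0541 to 0.169), *Cdc45*, lost without control 1, 2 or 3, inhibitor 1, 2 or 3, TGFβ 1 or 3 or combined 2 or 3 (adjusted p 0.0571 to 0.199), and *Fen1*, lost without control 1, 2 or 3, inhibitor 1, 2 or 3, TGFβ 1 or 3 or combined 1, 2 or 3 (adjusted p 0.0557 to 0.198). Fitted on these 2 groups alone, only *Mcm3*, *Rrm1*, *Tk1* and *E2f8* were called, where 332 of 12799 genes were lower. With all libraries thinned to the shallowest 12 members were called, where 512 of 11514 genes were lower. Without TGFβ replicates 2 and 3 the members' median was -0.38, against 0.0115 over all genes. Beside these falls, 7 of 10 interferon-response genes fell (median -0.55) and 3 of 11 mitosis genes, *Aurka*, *Bub1* and *Ccnb2*. The part of those genes in the result was not tested.

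**Figure D4:**
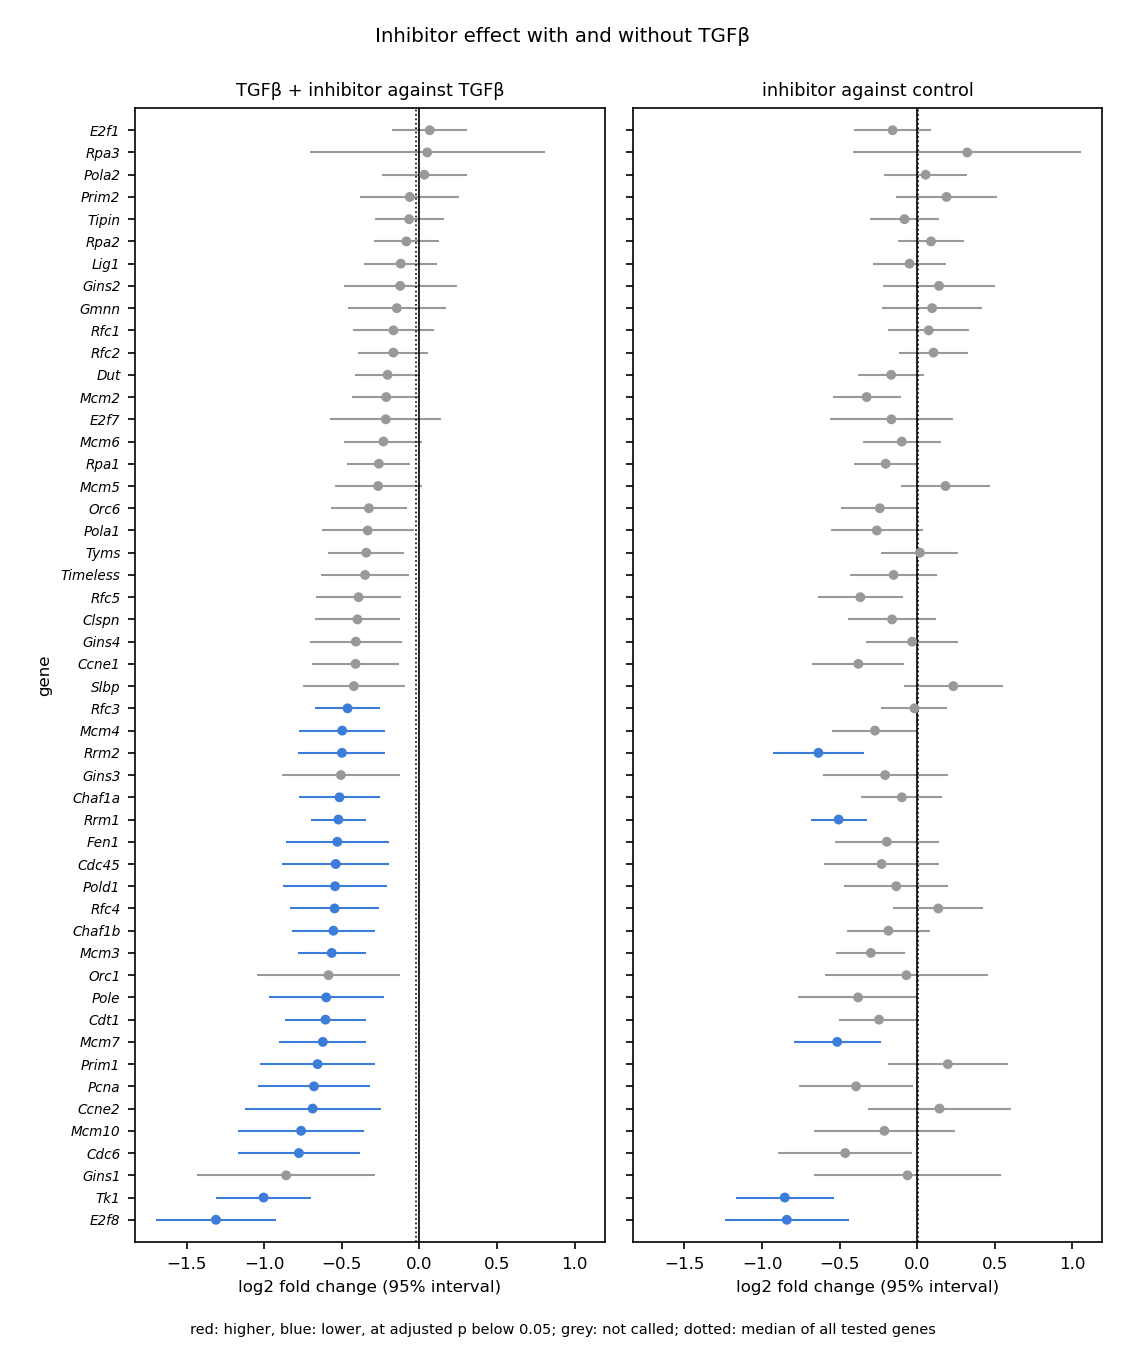
Log2 fold change with its 95% interval for each of the 50 genes, for the combined group against TGFβ (left) and for the inhibitor against control (right); genes are ordered by the left panel, blue marks a fall at an adjusted p below 0.05 and the dotted line the median of all tested genes. The 21 blue genes on the left include *E2f8* and *Tk1* at the bottom, and 5 genes are blue on the right.

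Cells given the inhibitor without TGFβ were then compared with the controls. Few members were called: 5 of 50 fell, *Rrm1*, *Rrm2*, *Tk1*, *Mcm7* and *E2f8*, against 5.80% of all tested genes, and none rose, against 2.47%. The estimate was negative in 36 members and positive in 14, called or not. In either direction 8.27% of tested genes were called. The median was -0.16, against 0.0074 over all tested genes. All inhibitor libraries lay below all controls in 19 members and above them in 2, against 18.7% and 17.0% of tested genes. Members took 0.278 to 0.296% of the counts with the inhibitor. The 5 genes were all among the 21 that fell with the inhibitor on TGFβ, 100% of the shorter list and 23.8% of the longer. These 2 comparisons share no library, but they come from the same model and share its estimate of each gene's spread. They are therefore not independent, and the same overlap was not counted over all tested genes.

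*Rrm1* read 114, 118 and 119 CPM with the inhibitor, 1.42-fold below the controls (-0.51 ± 0.09, adjusted p 0.000865). *Rrm2* read 27.6, 32.4 and 22.4 CPM, 1.55-fold lower (-0.64 ± 0.14, adjusted p 0.00740). *Tk1* read 27.6, 25.1 and 25.01 CPM, 1.81-fold lower (-0.85 ± 0.15, adjusted p 0.00114). None of these 3 overlapped the controls, and their calls were kept whichever library was left out. *Mcm7* read 277, 239.7 and 234 CPM, 1.43-fold lower (-0.52 ± 0.13, adjusted p 0.0217), and lost its call without control 1, 2 or 3 or inhibitor 2 or 3 (adjusted p 0.0615 to 0.0936). *E2f8* read 9.14, 6.51 and 7.10 CPM, 1.79-fold lower (-0.84 ± 0.19, adjusted p 0.00935), and lost its call without control 1 or inhibitor 2 (adjusted p 0.0508 to 0.0513). The count of falls was 3 without control 1 or inhibitor 2 and 11 without TGFβ 2, where *Mcm2* (adjusted p 0.00359), *Mcm3* (0.00962), *Mcm4* (0.0178), *Rfc5* (0.0148), *Pcna* (0.0274) and *Ccne1* (0.0486) joined. Over all genes 473 of 13922 were lower without control 1, 499 of 13949 without inhibitor 2 and 1397 of 13896 without TGFβ 2. On these 2 groups alone 12 members were lower, beside 1644 of 12953 genes. Without TGFβ replicates 2 and 3 the members' median was -0.18.

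Other members were not called. Licensing genes read 3.41, 3.31 and 3.82 CPM (*Orc1*), 11.3, 10.7 and 7.21 CPM (*Cdc6*), 45.4, 50.3 and 50.2 CPM (*Cdt1*) and 21.1, 16.3 and 17.2 CPM (*Gmnn*). *Cdc6* and *Cdt1* lay below the controls in every library, while *Orc1* and *Gmnn* overlapped them. Helicase genes read 157, 163 and 142 CPM (*Mcm2*), 70.5, 78.5 and 66.6 CPM (*Mcm3*), 39.6, 35.5 and 35.6 CPM (*Mcm5*) and 101, 97.7 and 106 CPM (*Mcm6*), with 16.3, 14.6 and 16.9 CPM for *Cdc45* and 32.1, 34.1 and 33.96 CPM for *Gins2*. Of these *Mcm2*, *Mcm3* and *Cdc45* lay below every control and *Mcm5* above every control. At the fork, levels were 49.7, 45.8 and 39.5 CPM (*Pola1*), 21.5, 22 and 23.4 CPM (*Pole*), 32.4, 26.4 and 20.97 CPM (*Pcna*), 68.2, 66.2 and 62.4 CPM (*Rfc3*) and 45.6, 46.6 and 51.8 CPM (*Fen1*). Only *Rfc3* of these overlapped the controls. The rest of the values were 54.5, 45.8 and 47.6 CPM (*Tyms*), 34.2, 36.4 and 30.6 CPM (*E2f1*), 12.9, 9.82 and 9.94 CPM (*E2f7*), 15.2, 20.5 and 17.1 CPM (*Ccne1*) and 26.2, 32.6 and 21.1 CPM (*Ccne2*), all overlapping the controls. *Slbp* at 24.2, 28.98 and 31.1 CPM, *Clspn* at 23.4, 23.2 and 31.01 CPM and *Tipin* at 52.9, 54.4 and 47.2 CPM overlapped them too. Among mitosis genes *Kif11* and *Plk1* fell and of the interferon-response genes 4 of 10.

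**Figure D5:**
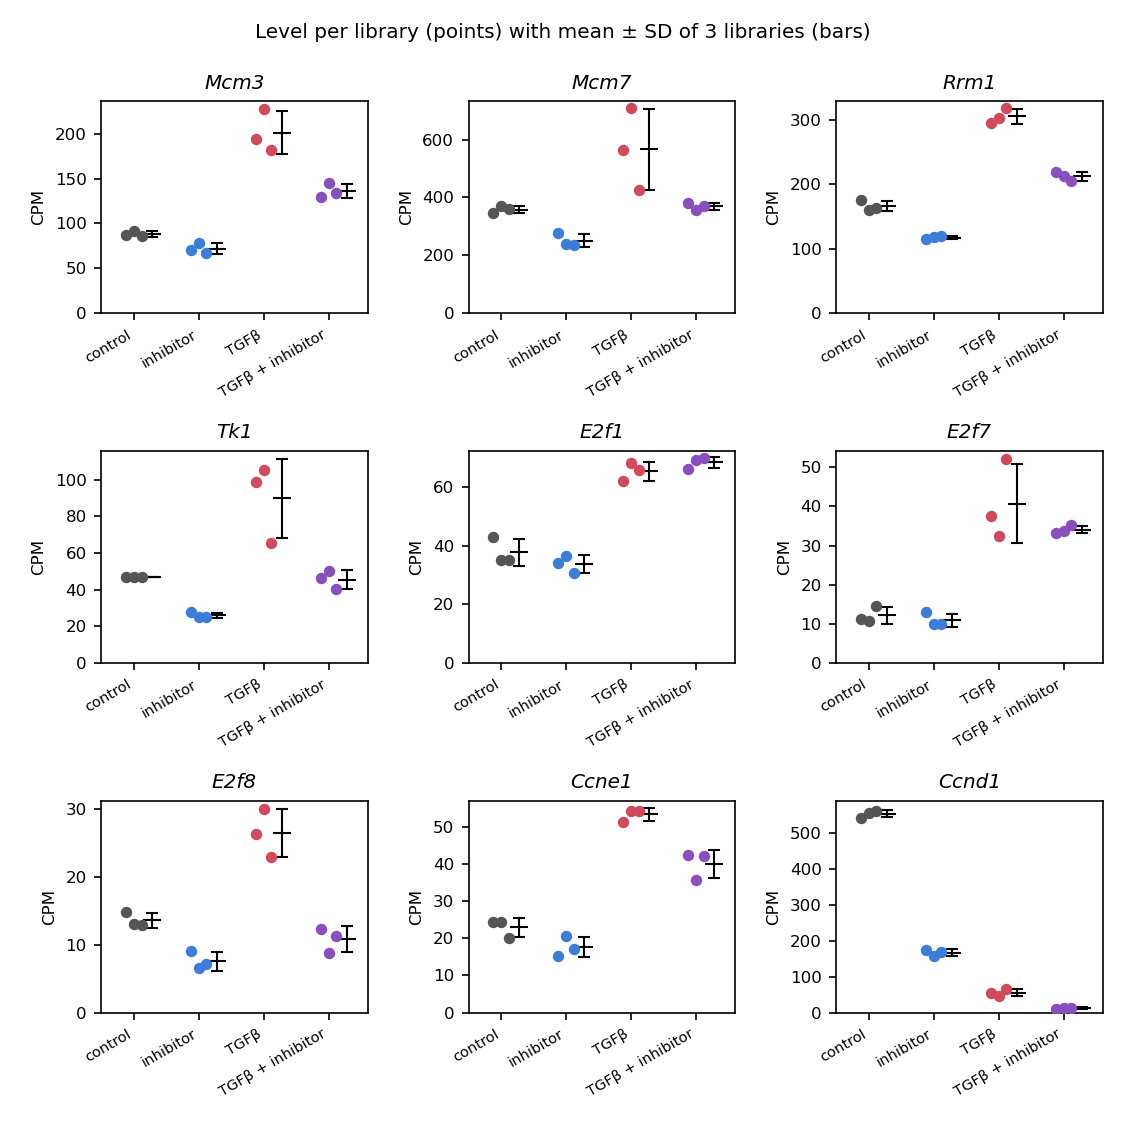
Level in CPM of 9 genes in each library (points, 3 a group) with the mean ± SD beside them, for control, inhibitor, TGFβ and the combined group; axes start at 0. In the combined group *E2f1* and *E2f7* overlap their TGFβ libraries, *Tk1* and *Mcm7* overlap their controls, *E2f8* lies below its controls, and *Ccnd1* is lower than in its other 3 groups, at 12.4 ± 1.99 CPM.

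The TGFβ response in the presence of the inhibitor was read from the combined group against the inhibitor. It had the same sign as without it in 48 of 50 members: 37 rose, against 18.0% of all tested genes, and none fell, against 18.3% (36.3% in either direction). The median was 0.52, and in 40 members the combined libraries lay above all inhibitor libraries, against 26.0% of tested genes. The 37 were all among the 47 that rose with TGFβ alone, 100% of the shorter list and 78.7% of the longer. As the longer list held 47 of the 50 members, most of this overlap was fixed in advance. The steepest were *E2f7* at 3.12-fold (1.64 ± 0.18, adjusted p 8.09e-07), *Rrm2* at 2.47-fold (1.30 ± 0.14, adjusted p 5.42e-07), *Cdc45* at 2.46-fold (1.30 ± 0.17, adjusted p 8.3e-06) and *Cdc6* at 2.44-fold (1.29 ± 0.20, adjusted p 4.88e-05). *Cdt1* (0.16 ± 0.12, adjusted p 0.328), *Gins1*, *Gins2*, *Gins4*, *Pold1*, *Prim1*, *Rfc2*, *Rfc4*, *Slbp* (-0.24 ± 0.15, adjusted p 0.229) and *Timeless* were called with TGFβ alone and not here. Calls that failed without some library were *E2f8*, lost without control 1, 2 or 3, inhibitor 2 or 3, TGFβ 1 or combined 1 or 3 (adjusted p 0.0558 to 0.162), *Pola1*, lost without control 1, 2 or 3, inhibitor 2 or 3 or combined 2 or 3 (adjusted p 0.0597 to 0.150), and *Gmnn*, lost without inhibitor 2 or 3 or combined 1 or 2 (adjusted p 0.0719 to 0.107). *Prim2* was lost without inhibitor 1 or 3 or combined 1 (adjusted p 0.0533 to 0.124), *Rpa1* without inhibitor 3 or combined 1 or 2 (adjusted p 0.0554 to 0.0931) and *Chaf1a* without inhibitor 1 or 2 or combined 3 (adjusted p 0.0598 to 0.0944).

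Against control, 28 members were higher in the combined group and none lower, where 15.3% of all tested genes were higher and 16.5% lower. The median was 0.41. This comparison shares its libraries with those above and is given for the level at which each gene ended. *E2f7* stood 2.78-fold above control (1.48 ± 0.18, adjusted p 3.03e-06), *Orc1* 2.19-fold (1.13 ± 0.23, adjusted p 0.00104), *Cdc45* 2.10-fold (1.07 ± 0.17, adjusted p 7.55e-05), *Ccne2* 2.08-fold (1.05 ± 0.21, adjusted p 0.00133) and *E2f1* 1.82-fold (0.86 ± 0.12, adjusted p 1.1e-05). Among the 22 not called were *Tk1*, with an interval of -0.35 to 0.27, *Cdt1* (-0.34 to 0.18), *Mcm7* (-0.23 to 0.32), *Slbp* (-0.34 to 0.31) and *Pcna* (-0.14 to 0.59). *E2f8* was 1.26-fold lower (-0.33 ± 0.19, adjusted p 0.191), not called, with every combined library below every control. In 37 members the combined libraries lay above all controls, against 27.0% of tested genes. Calls lost without some library were *Mcm4*, without control 2 or 3 or combined 1, 2 or 3 (adjusted p 0.0511 to 0.115), *Gins3*, without control 1 or 2 or combined 1 or 2 (adjusted p 0.0550 to 0.119), *Prim1*, without control 1 or 3 or combined 3 (adjusted p 0.0542 to 0.0607), and *Pole*, without control 1, 2 or 3 or combined 2 (adjusted p 0.0703 to 0.193). So were *Rfc4*, without control 2 or 3 or combined 1 or 3 (adjusted p 0.0502 to 0.0947), *Fen1*, without control 3 or combined 1 or 2 (adjusted p 0.0548 to 0.0734), *Lig1*, without control 1 or combined 3 (adjusted p 0.0526 to 0.0706), and *Tyms*, without control 2 (adjusted p 0.0541).

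Whether the inhibitor acted differently with and without TGFβ was tested by the interaction. No member was called at an adjusted p below 0.05 by edgeR, where 1.11% of all tested genes were (0.641% positive and 0.471% negative). At an unadjusted p below 0.05 there were 8 of 50 members, against 10.5% of all tested genes. DESeq2 called 0 members, limma with library weights 1, and edgeR without the filter on low counts 2. These calls were negative, as were 200 of 13581 genes by limma and 116 of 23630 without the filter. The estimate was negative in 46 of 50, with a median of -0.26 against -0.0196 over all tested genes. It was furthest from 0 in *Prim1* (-0.85 ± 0.25, adjusted p 0.147), which was called without TGFβ 3 (adjusted p 0.0176), and *Ccne2* (-0.83 ± 0.30, adjusted p 0.286). *Rrm1* (-0.02 ± 0.12, adjusted p 0.981) and *Tk1* (-0.15 ± 0.21, adjusted p 0.864) were near 0, with intervals of -0.27 to 0.24 and -0.59 to 0.29.

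The wider pathway was followed in 95 further genes, of which 94 were tested (*Myb* was not). With TGFβ 55 rose and 5 fell, against 19.4% and 17.1% of all tested genes. With the inhibitor alone 2 rose and 10 fell, against 2.47% and 5.80%, so the rises were near the background. With the inhibitor on TGFβ none rose and 12 fell, against 3.45% and 6.97%. In the combined group 49 rose and 4 fell against the inhibitor, where 18.0% and 18.3% of tested genes did. Against control 35 rose and 5 fell, where 15.3% and 16.5% did. The G1/S control genes in this wider set differed from the rest with TGFβ. Of 21 tested, 8 rose and 4 fell, with a median of 0.13. The nucleotide, fork checkpoint, chromatin, and origin and fork genes had medians of 0.43 to 0.62. Of the D-type cyclins, the G1 partners of Cdk4 and Cdk6, *Ccnd1* and *Ccnd2* fell with TGFβ and *Ccnd3* was not called (-0.16 ± 0.10, adjusted p 0.234). *Ccnd1*, cyclin D1, read 543, 557 and 561 CPM in the controls, 175, 157 and 168 CPM with the inhibitor, 53.5, 46.3 and 66.6 CPM with TGFβ and 10.2, 13.9 and 13.2 CPM in the combined group. It fell 10.2-fold with TGFβ (-3.35 ± 0.13, adjusted p 1.69e-12), 3.32-fold with the inhibitor (-1.73 ± 0.12, adjusted p 4.29e-08) and 4.37-fold more with the inhibitor on TGFβ (-2.13 ± 0.14, adjusted p 2.42e-08). No 2 of its groups overlapped, and the combined group stood 44.5-fold below control (-5.48 ± 0.15, adjusted p 1.77e-14). *Ccnd2*, cyclin D2, read 1764, 1800.0 and 1757 CPM in the controls, 941, 916 and 948 CPM with the inhibitor, 588, 629.8 and 543 CPM with TGFβ and 507, 581 and 554 CPM in the combined group. It fell 3.02-fold with TGFβ (-1.59 ± 0.09, adjusted p 1.6e-10) and 1.90-fold with the inhibitor (-0.92 ± 0.09, adjusted p 2.36e-06), but was not called with the inhibitor on TGFβ (-0.10 ± 0.09, adjusted p 0.508). The interaction was called for *Ccnd2* (0.82 ± 0.13, adjusted p 0.00191). *E2f2*, an activator E2F, also fell with TGFβ (-1.01 ± 0.22, adjusted p 0.00138).

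The largest rises among these genes with TGFβ were in *Brca1*, which acts in homologous recombination, and *Mcm8*, a helicase of the same pathway. *Brca1* read 5.36, 7.14 and 6.05 CPM in the controls and 19.1, 21.4 and 20.3 CPM with TGFβ, 3.28-fold higher (1.71 ± 0.22, adjusted p 6.88e-06). *Mcm8* read 3.57, 5.45 and 2.12 CPM and 10.9, 13.4 and 5.74 CPM, 2.88-fold higher (1.52 ± 0.33, adjusted p 0.00143). Neither overlapped its controls, though replicate 3 of *Mcm8* came near. With the inhibitor alone the 2 rises were *Atr*, the fork checkpoint kinase (0.43 ± 0.12, adjusted p 0.0308), and *Rad17*, which loads its clamp (0.40 ± 0.11, adjusted p 0.0318). Both calls were fragile: *Atr* was lost without control 1, 2 or 3, inhibitor 1, 2 or 3 or combined 1 (adjusted p 0.0510 to 0.195) and *Rad17* without control 1, 2 or 3, inhibitor 1, 2 or 3 or combined 1 or 3 (adjusted p 0.0540 to 0.158). With the inhibitor on TGFβ the largest falls were in *Ccnd1* and in *Dscc1*, part of an alternative clamp loader (-0.81 ± 0.25, adjusted p 0.0486), which lost its call without control 2 or 3, inhibitor 1, 2 or 3, TGFβ 1 or 3 or combined 1, 2 or 3 (adjusted p 0.0597 to 0.166). In the combined group against the inhibitor *Brca1* was among the largest rises (1.21 ± 0.23, adjusted p 0.000341). Against control the largest were *Brca1* (0.99 ± 0.22, adjusted p 0.00203) and *Asf1b*, a histone chaperone (0.90 ± 0.15, adjusted p 0.000162).

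Genes were also ranked by likeness of pattern to *Mcm5* over the 12 libraries, with all members and genes of the other lists left out. Among the remaining genes at a mean of 10 CPM or more, the 5 closest were *Cdc42bpa* (Pearson's r 0.967), *Mgll* (0.963), *Nans* (0.961), *Uso1* (0.958) and *Polh* (0.957). How closely the left-out genes followed *Mcm5* is not given. These are descriptions, since the points share libraries and the 4 groups set most of the pattern.

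No source used here says whether counting used strand, and reads of a gene and its antisense neighbour may then be mixed or left uncounted. Reads set aside as ambiguous in the counting were 0.61 to 0.80% of each library. Exons of 19 members overlap another annotated gene, on the same strand only for *Mcm7* and *Rpa1*. For *Ccne2*, *Cdc45*, *Chaf1a*, *Fen1*, *Gins2*, *Mcm7*, *Orc1*, *Orc6*, *Rfc4* and *Rfc5* the overlapping gene held more than 10% of the member's counts, and their values are less certain for it. Pseudogene copies drew few counts over all libraries, 259 for *Pcna-ps2* against 4286 for *Pcna* and 49 for *Tyms-ps* against 6234 for *Tyms*.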

How the data were processed

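Whole-number counts per gene for 12 libraries in 1 table were deposited by the authors, and the submitters' processing notes list STAR and HTSeq as tools. Versions and the strand setting are not given in the sources used here. These notes name GRCh38, which is human, while gene identifiers are mouse Ensembl, so gene positions are given only for RefSeq promoter windows of GRCm38.p6. Libraries were made with QuantSeq 3′ FWD from 100 ng of total RNA, per the labels' protocols. The 5 rows that name no gene were left out, and reads outside genes were 21.1 to 26.8% of each library. Of 55487 identifiers 55141 matched a symbol and 23630 had a count. Overlaps between genes were found in the GENCODE M21 annotation.

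Genes passing filterByExpr (13581) were scaled by TMM and tested with edgeR's quasi-likelihood test (version 4.0.16, robust, R 4.3.3). A single model held the means of all 4 groups. P-values were adjusted over all tested genes by Benjamini-Hochberg, and genes called below 0.05. SE is the log2 fold change over the square root of F. The log2 CPM for the likeness to *Mcm5* used a prior count of 3. Members, lists and tests were chosen with earlier results of these data known. All members are counted by role. Values per library are given for a panel of 27 members and for members that other results turn on, and of the 95 further genes for the 2 largest changes called in each direction, apart from some results that are not reported here. *E2f2*, *Ccnd3*, the markers and the genes of the lists beside were named after their values were seen. The procedure was tested on simulated data with the same spread in every group, which says nothing of calls under the wider spread of the TGFβ libraries. No replicates looked like duplicates (chi-square over its degrees of freedom 3.23 to 40.8). Same-numbered replicates did not all deviate together, so they were not treated as pairs. Nothing says that replicates are separate cultures, so p-values measure the spread between libraries, which may be technical. Alternatives were DESeq2 1.42.0, library size without TMM, no filter, only the groups compared, a replicate block, limma 3.58.1 with library weights, thinning and leaving out each library. Leaving out TGFβ replicates 2 and 3 was added after seeing the data. The 3 counts given above as CPM describe depth only and entered no test.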

Additional observations from a re-analysis of the deposited data

Results flagged for a closer look

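For *Ccnd2*, cyclin D2, of the wider pathway the effect of the inhibitor differed between cells with and without TGFβ, by the interaction test of edgeR. It read 1764, 1800.0 and 1757 CPM in the controls, 941, 916 and 948 CPM with the inhibitor, 588, 629.8 and 543 CPM with TGFβ and 507, 581 and 554 CPM in the combined group. The inhibitor lowered it without TGFβ and was not called with TGFβ, an interaction of 0.82 ± 0.13 (adjusted p 0.00191). All 12 fits that left out 1 library kept this call.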

How the results depend on the processing

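No called change of a member turned sign under any alternative run. With TGFβ against control 43 to 47 members were called under the alternatives, and without each library in turn 43 to 47. For the combined group against the inhibitor the range without each library was 32 to 40, and against control 24 to 34. For the combined group against TGFβ (21), 4 were called on these 2 groups alone, 12 with libraries thinned to the shallowest. Without each library the range was 10 to 20. Over all genes 332 of 12799 were lower on these 2 groups alone and 512 of 11514 with thinning, in place of 947 of 13581. Without each library 505 to 1275 were. For the inhibitor against control (5), 8 were called by library size alone, 12 on these 2 groups alone and 11 by limma with library weights. Without each library the range was 3 to 11. Calls over all genes moved as well: 1644 of 12953 were lower on these 2 groups alone and 1685 of 13581 by limma, in place of 788. Without each library 472 to 1397 were. Without TGFβ replicates 2 and 3 the members' median was -0.18, in place of -0.16. For the interaction (0), 2 were called without the filter, 1 by limma, and 0 to 1 without each library. All were negative, as were 116 of 23630 genes without the filter and 200 of 13581 by limma, in place of 64 of 13581. The cause of these shifts was not tested. Same-numbered replicates did not pair, and a replicate block gave the same counts (47, 5, 21, 37, 28 and 0), although *Fen1* left the 21 and *Slbp* joined. By library size alone, calls over all genes were 1404 higher and 2899 lower for the combined group against control, in place of 2077 and 2244, and 204 higher and 1036 lower for the inhibitor, in place of 335 and 788. The median of all genes was then -0.0874 for the combined group against control, in place of 0.0282, and 22 members were called. TGFβ replicate 3, with 2584117 counts, was the shallowest, and TGFβ replicate 2 had the lowest library weight in limma (0.146).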
